A study of Homo sapiens with 6 samples.

Results

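The cytosolic ribosomal protein genes encode the protein components of the ribosome that translates messenger RNA outside mitochondria. They were taken by symbol: RPL or RPS followed by a number with an optional A, X or L, plus RPLP0, RPLP1, RPLP2, RPSA and RPL36AL. The rule used no measured value and gave 81 of the 17787 gene symbols listed in any library, 33 named for the small subunit and 48 for the large subunit. All 81 were listed in every library and all 81 reached the level needed for testing, against 12555 of all symbols. The values come from A549, a human line established from a lung adenocarcinoma, in 6 RNA-seq libraries. Libraries labelled siFOXD3 (3, genotype label siFOXD3) carry the name of an siRNA, a short RNA duplex that directs the breakdown of a chosen messenger RNA, against the forkhead transcription factor FOXD3, and libraries labelled siNC (3, genotype label wild type) served as the control. The labels do not spell out siNC and do not say that the replicates were separate cultures, and each p-value therefore reflects the spread of these libraries alone, which may be technical. Per the series title, FOXD3 represses WDR5 and SET, and the comparison addresses which messenger RNAs change once FOXD3 is reduced.

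Ribosomal proteins are made in near-equal numbers, join ribosomal RNA in the nucleolus and are degraded when they are not built into a ribosome. Most of their messenger RNAs begin with a terminal oligopyrimidine tract (TOP), a cytosine followed by an unbroken run of pyrimidines at the cap, through which the mTOR kinase and the RNA-binding protein LARP1 control their translation and stability. In growing cell lines they are among the most abundant messenger RNAs, and each has many processed pseudogenes elsewhere in the genome.

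Levels are in FPKM, fragments scaled by the length of the transcript and the size of the library, and the depth estimated from the steps between low values was 7420000 to 8650000 fragments per library. FOXD3 was listed at 0.0250 ± 0.0432 FPKM in siFOXD3 and at 0.192 ± 0.0858 FPKM in siNC (mean ± SD, n = 3 each), below the level needed for testing. WDR5 averaged 34.0 FPKM in siFOXD3 and 20.1 FPKM in siNC, and SET averaged 318 FPKM in siFOXD3 and 217 FPKM in siNC. All 9 markers of lung carcinoma epithelium reached 1 FPKM, with sums of 9086 to 9091 FPKM in siFOXD3 and 6155 to 7145 FPKM in siNC. The protocol label names retina, and 0 of 8 photoreceptor markers reached 1 FPKM in any library, with 3 at 0 throughout and sums of 0.752 to 1.29 FPKM in siFOXD3 and 0.739 to 1.22 FPKM in siNC. Of the fibroblast markers, 1 of 7 reached 1 FPKM (sums of 2.96 to 3.58 FPKM in siFOXD3 and 3.61 to 4.58 FPKM in siNC). Of the leukocyte markers, 2 of 6 did, with PTPRC and CD3E among those under 1 FPKM (sums of 67.1 to 68.3 FPKM in siFOXD3 and 72.3 to 83.0 FPKM in siNC). The part of these marker levels in the results was not tested.

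Most ribosomal protein messenger RNAs were lower in siFOXD3 than in siNC, by a modest amount. Of the 81 genes, 64 fell and 7 rose at an adjusted p under 0.05 (limma on log2(FPKM + 1), Benjamini-Hochberg over all genes tested), and 10 did not pass. The 71 genes called either way compare with 65.9% of all genes tested. The falls made up 79.0% of the ribosomal protein genes, against 38.7% of all genes tested, and the rises 8.64%, against 27.2%. The median log2 fold change was -0.23, with quartiles of -0.35 and -0.13, beside a median of -0.08 over all genes tested. The FPKM values of the siFOXD3 and siNC libraries did not overlap for 63 genes that were lower and 7 that were higher, beside 41.1% and 29.6% of all genes tested (70.7% in either direction). In bulk RNA, fewer cells of a type and less RNA per cell cannot be told apart.

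The split between falls and rises moved with the scaling of the libraries. After median-of-ratios scaling 47 genes fell and 11 rose, beside 33.1% lower and 33% higher over all genes (66.1% either way). After quantile normalization 45 fell and 14 rose, beside 30.5% and 33.9% over all genes (64.4% either way). The median of all genes moved to -0.00 under median-of-ratios scaling and to 0.03 under quantile normalization. Set against the all-gene median under each scaling, the ribosomal protein median was -0.15 as deposited, -0.14 after median-of-ratios scaling and -0.15 after quantile normalization. Without siFOXD3 replicate 3, 4 genes rose in place of 7.

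**Figure D1:**
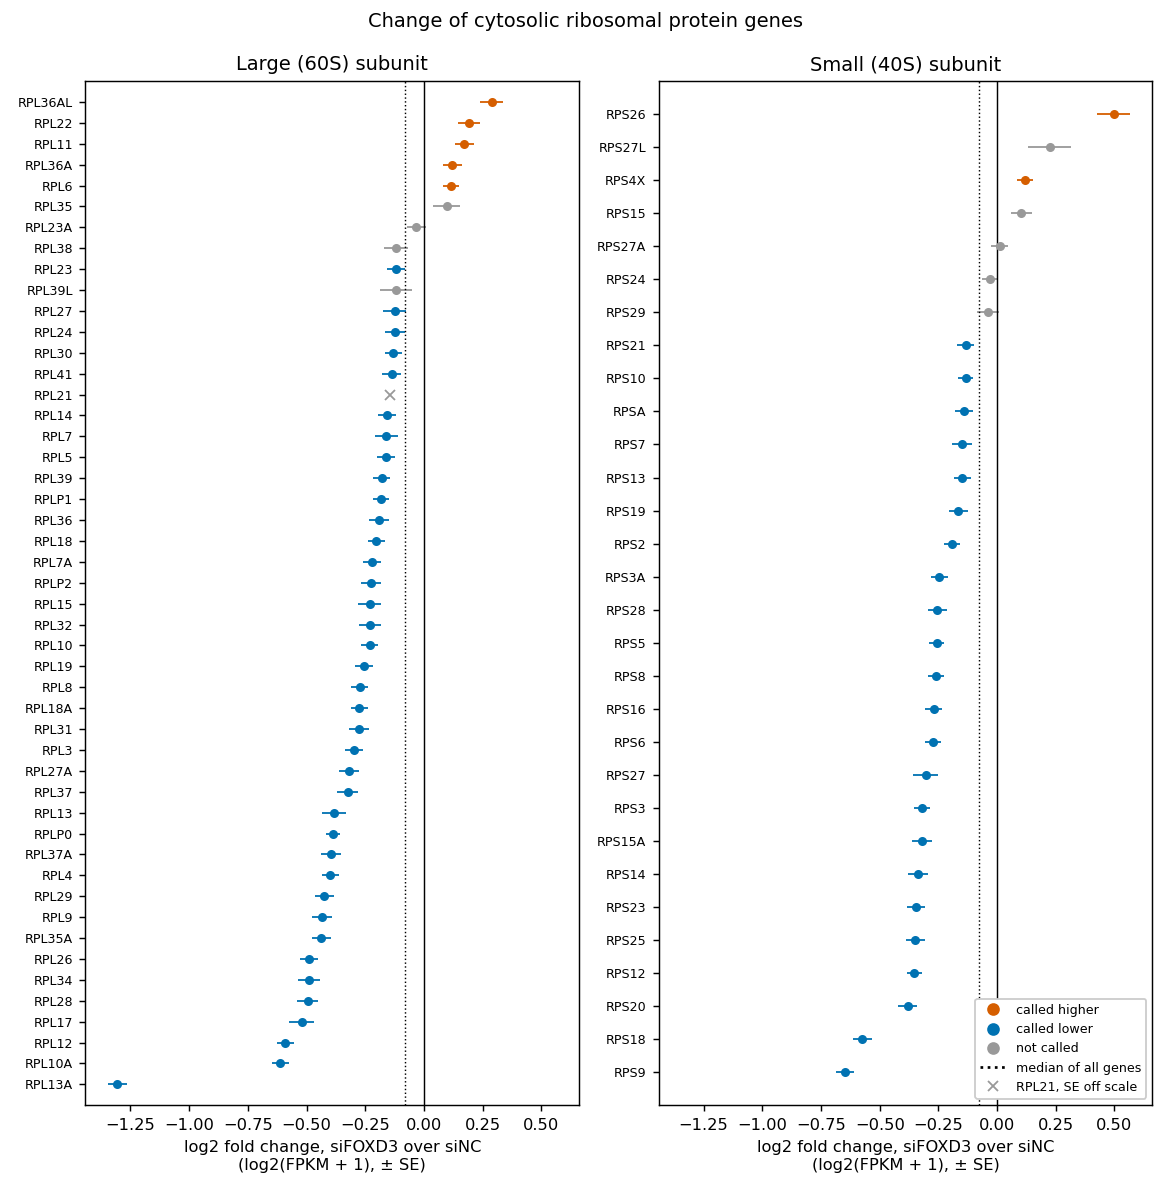
Log2 fold change on the log2(FPKM + 1) scale of siFOXD3 over siNC for 78 of the 81 ribosomal protein genes, large subunit (left) and small subunit (right) in panels of their own. Points are coloured by call, bars are 1 standard error (RPL21, a cross, has none drawn since its standard error was 3.76), and the dotted line is the median of all genes tested, -0.08. Most points lie left of 0, RPL13A lies lowest at -1.31 (-0.72 with its pseudogene rows added) and RPS26 highest at 0.50.

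Both subunits were mostly lower in siFOXD3. In the small subunit 26 of 33 genes fell (78.8%) and 2 rose (6.06%), with a median log2 fold change of -0.26. In the large subunit 38 of 48 fell (79.2%) and 5 rose (10.4%), beside 38.7% and 27.2% of all genes tested. Its median was -0.23, so the subunit medians differed by -0.03 (small minus large). After quantile normalization that difference was 0.06, so the order of the subunits depended on the scaling. Under it 17 small-subunit genes were lower (51.5%) and 8 higher (24.2%), and 28 large-subunit genes were lower (58.3%) and 6 higher (12.5%). Over all genes 30.5% were lower and 33.9% higher under that scaling. Small-subunit genes made up 46.2 ± 0.494% of the summed ribosomal protein FPKM in siFOXD3 and 46.6 ± 0.300% in siNC (SD, n = 3 each). That sum includes RPL21, a large-subunit gene at 0.0164 to 2276 FPKM in siFOXD3 and 52.2 to 632 FPKM in siNC. No difference between the groups is therefore read from this share. The changes of single genes clustered closely, with 57 of the 81 within 0.2 of the median. Changes below -0.5 were seen in 7 genes, 20 lay between -0.5 and -0.3, 40 between -0.3 and -0.1, 5 within 0.1 of no change, and 9 above 0.1.

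The ribosomal protein genes together held 23.1, 22.7 and 23.4% of the summed FPKM in siFOXD3 replicates 1 to 3, against 26.7, 26.1 and 27.4% in siNC replicates 1 to 3. Every siFOXD3 library lay below every siNC library. The means were 23.1 ± 0.363% in siFOXD3 and 26.7 ± 0.657% in siNC, a difference of -3.67 percentage points. Without the 100 most abundant symbols outside the set, the shares were 29.2 ± 0.182% in siFOXD3 and 33.3 ± 0.684% in siNC. The summed level was 139191 ± 951 FPKM in siFOXD3 and 163645 ± 5181 FPKM in siNC, a ratio of 0.851. These shares and sums count pseudogene rows as outside the set. RPL13AP5 averaged 3253 FPKM in siFOXD3 and 4969 FPKM in siNC, and RPL21P28 averaged 887 FPKM in siFOXD3 and 2408 FPKM in siNC. Shares with such rows added are not given. Abundant genes outside the set were more often higher than lower. Of 774 others with a mean of at least 100 FPKM, 192 fell (24.8%) and 383 rose (49.5%), beside 38.7% and 27.2% of all genes tested. Their median log2 fold change was 0.14. The counts were 153 lower (19.8%) and 443 higher (57.2%) after median-of-ratios scaling, beside 33.1% and 33%. After quantile normalization they were 254 lower (32.8%) and 327 higher (42.2%), beside 30.5% and 33.9%. The median was then 0.05, beside 0.03 for all genes tested.

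**Figure D2:**
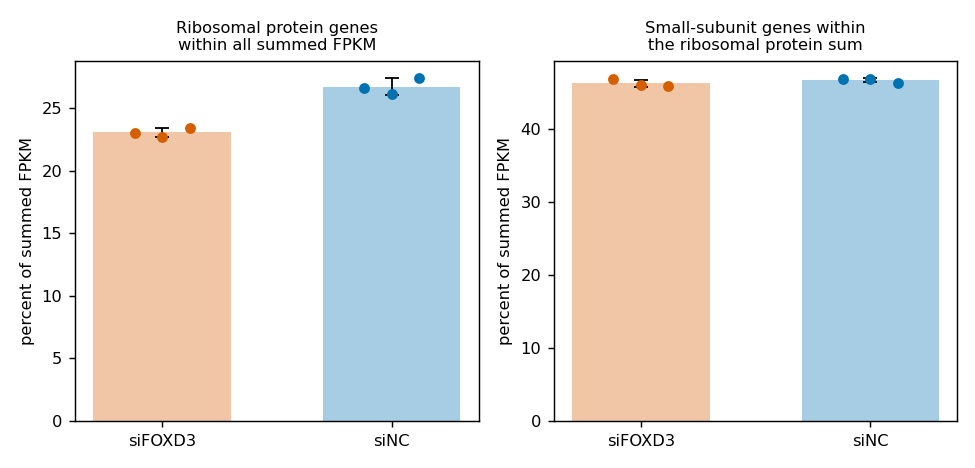
Left, share of the summed FPKM (percent) held by the 81 ribosomal protein genes; right, share of that sum held by small-subunit genes. Points are libraries, and bars are group means with SD (n = 3 each). The sums include RPL21, which varied from 0.0164 to 2276 FPKM between siFOXD3 libraries, and leave its pseudogene row outside the set. On the left the siFOXD3 libraries lie between 22.7 and 23.4%, all below the siNC libraries at 26.1 to 27.4%.

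The largest falls were in genes of both subunits. RPL13A, a large-subunit protein also known as part of an interferon-regulated translation silencing complex, was at 459.9, 463 and 477 FPKM in siFOXD3 and at 1147, 1124 and 1197 FPKM in siNC. All siFOXD3 values were under the lowest siNC value, at a ratio of means of 0.404, and RPL13A fell by 1.31 ± 0.04 on the log2 scale (± SE; limma, adjusted p = 8.74e-09 by Benjamini-Hochberg), a fall that was 0.72 with its pseudogene rows added. RPS9, which lies near the point where messenger RNA enters the small subunit, was at 1306, 1246 and 1308 FPKM in siFOXD3 and at 1996, 1987 and 2067 FPKM in siNC. Its log2 fold change was -0.65 ± 0.04 (limma adjusted p = 2.95e-07). RPL10A, a large-subunit protein of the L1 stalk beside the exit site for transfer RNA, was at 798, 774 and 768 FPKM in siFOXD3 and at 1194, 1174 and 1209.9 FPKM in siNC. It fell by 0.61 on the log2 scale, with no overlap between the groups. RPL12, at the base of the stalk where elongation factors bind, was at 1093, 1110.1 and 1086 FPKM in siFOXD3 and at 1620.4, 1625 and 1709 FPKM in siNC. Its log2 fold change was -0.59 ± 0.04, and its siFOXD3 values lay well apart from siNC.

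RPS18, in the head of the small subunit, was listed on 6 rows per library, which were summed. The sums were 3937, 3834 and 3793 FPKM in siFOXD3 and 5840.2, 5422 and 5984 FPKM in siNC, a log2 fold change of -0.58 ± 0.04 (limma adjusted p = 1.1e-06). The row with the highest value alone gave 727.0, 727.7 and 727.7 FPKM in siFOXD3 and 1065, 1023 and 1115 FPKM in siNC, with a log2 fold change of -0.55. The fall of RPS18 was therefore nearly the same with the sum and with its highest row, and for the sum it was -0.23 after quantile normalization.

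The 5′ ends of genes at both ends of the range are printed because the tract that defines TOP messenger RNAs would lie there. RefSeq promoters (assembly GRCh38.p14) were found for 64 of the 81 genes; the deposited values were made on hg19, and the coordinates below are those of GRCh38.p14. The motif searched was a C followed by at least 4 bases that are C or T, on the sense strand, with the C within 10 bases of the annotated start. Each window holds 25 bases before the start and 25 from the start on, 5′ to 3′ on the gene's own strand, and capitals mark the matched run from its first counted C, the one nearest the start, onward; pyrimidines directly before that C are left in lower case. The 5 windows of genes with large falls are followed by 4 of genes that rose and had the motif (RPS26, RPL36AL, RPL22, RPL11), and then by 2 without it, RPS4X, which rose, and RPS27L, a paralog that did not pass. For RPL11 the table holds 2 starts, and the window around the one with the motif closest to it is shown.
RPL13A (chr19:49487583-49487632, plus strand): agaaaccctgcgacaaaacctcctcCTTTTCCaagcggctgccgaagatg
RPS9 (chr19:54200833-54200882, plus strand): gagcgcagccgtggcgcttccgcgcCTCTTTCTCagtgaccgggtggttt
RPL10A (chr6:35468376-35468425, plus strand): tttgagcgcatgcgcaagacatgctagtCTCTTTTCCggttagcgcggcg
RPL12 (chr9:127451382-127451431, minus strand): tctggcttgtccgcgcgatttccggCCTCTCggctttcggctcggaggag
RPS18 (chr6:33272050-33272099, plus strand): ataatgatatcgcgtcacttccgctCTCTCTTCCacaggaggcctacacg
RPS26 (chr12:56041893-56041942, plus strand): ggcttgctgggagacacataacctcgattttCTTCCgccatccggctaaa
RPL36AL (chr14:49620602-49620651, minus strand): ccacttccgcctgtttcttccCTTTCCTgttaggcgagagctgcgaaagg
RPL22 (chr1:6199571-6199620, minus strand): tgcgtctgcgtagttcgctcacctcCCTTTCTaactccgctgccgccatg
RPL11 (chr1:23691781-23691830, plus strand): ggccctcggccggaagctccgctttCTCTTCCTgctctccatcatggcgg
RPS4X (chrX:72277224-72277273, minus strand): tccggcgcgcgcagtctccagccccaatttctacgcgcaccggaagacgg
RPS27L (chr15:63157453-63157502, minus strand): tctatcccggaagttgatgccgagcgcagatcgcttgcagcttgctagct

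The motif was present in 58 of the 64 matched ribosomal protein genes (90.6%), against 10494 of the 27305 symbols in the promoter table (38.4%) and 3729 of the 8825 tested genes with a promoter (42.3%). On the reverse strand of the same window it was present in 13 of the 64 (20.3%) and in 36.2% of all symbols. Of the matched genes that fell, 47 of 49 had it, of those that rose, 5 of 7, and of those that did not pass, 6 of 8. Genes with the tract therefore stood on both sides of no change, RPL13A at -1.31 (-0.72 with its pseudogene rows added) and RPS26 at 0.50 among them. A match describes the letters near an annotated start, and the start used in these cells was not measured.

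The acidic stalk, which recruits elongation factors, fell as a whole. RPLP0, the stalk's anchor, was at 2386, 2367 and 2372 FPKM in siFOXD3 and at 3057, 3109.7 and 3154 FPKM in siNC, a log2 fold change of -0.39 ± 0.03 (limma adjusted p = 2.86e-06). RPLP1, which binds RPLP0 with RPLP2, was at 2917, 2978 and 2899 FPKM in siFOXD3 and at 3461, 3251 and 3275 FPKM in siNC. RPLP2 was at 1529.7, 1466 and 1424 FPKM in siFOXD3 and at 1784, 1660.0 and 1724 FPKM in siNC. No value of siFOXD3 reached the siNC range in any of the 3 genes, and the log2 fold changes were -0.18 ± 0.04 for RPLP1 and -0.23 ± 0.04 for RPLP2. After quantile normalization the change of RPLP0 was -0.13 and that of RPLP1 0.02, of the opposite sign, and RPLP1 did not pass after median-of-ratios scaling either (-0.09). RPLP2 fell by 0.14 after median-of-ratios scaling.

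The 3 genes chosen for proteins that line the exit tunnel of the growing peptide also fell. RPL4, which reaches into the tunnel at its constriction, was at 967, 981 and 982 FPKM in siFOXD3 and at 1279, 1263 and 1323 FPKM in siNC. RPL17, at the tunnel wall, was at 848, 841 and 893 FPKM in siFOXD3 and at 1203, 1166 and 1339 FPKM in siNC. The log2 fold changes were -0.40 ± 0.04 for RPL4 and -0.52 ± 0.05 for RPL17, with no overlap between siFOXD3 and siNC. RPL39, a very short protein near the tunnel's end, had the highest level of all 81 genes, with 8732, 8685 and 8807 FPKM in siFOXD3 and 10056, 9424 and 10241 FPKM in siNC. Its fall was smaller, at -0.18 ± 0.04 (limma adjusted p = 0.00119), again without overlap, and it did not pass after median-of-ratios scaling (-0.09, limma adjusted p = 0.0619).

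Of 7 proteins chosen along the messenger RNA path of the small subunit, 5 fell (71.4%), 1 rose (14.3%) and 1 did not pass. Over all genes tested 38.7% fell and 27.2% rose. RPS9, given above, is not among the 7. RPS3, which lines the entry of the path and also has DNA repair roles, was at 2968, 2934 and 2994 FPKM in siFOXD3 and at 3737, 3574 and 3794 FPKM in siNC, a log2 fold change of -0.32 ± 0.03. RPS23, a decoding-site protein, was at 352, 347 and 358 FPKM in siFOXD3 and at 447, 438 and 459.7 FPKM in siNC, a log2 fold change of -0.35 ± 0.04. RPS2, at the path's entry, was at 1439, 1417 and 1382 FPKM in siFOXD3 and at 1615, 1599 and 1633 FPKM in siNC, a log2 fold change of -0.19 ± 0.03. In RPS3, RPS23 and RPS2 every siFOXD3 library was below every siNC library, and the smallest changes under other scalings were -0.17 for RPS3 and -0.11 for RPS2. RPS28, beside the exit of the path, was at 1096, 1124 and 1058 FPKM in siFOXD3 and at 1342, 1264 and 1307 FPKM in siNC, a log2 fold change of -0.26 ± 0.04 (-0.16 after quantile normalization). RPSA, a late-joining protein also described as a laminin receptor, was at 2313, 2356 and 2281 FPKM in siFOXD3 and at 2684, 2497 and 2485 FPKM in siNC, a log2 fold change of -0.14 ± 0.04. That call of RPSA did not hold after median-of-ratios scaling (-0.05) or in limma without trend and robust, and after quantile normalization the change was 0.12. RPS15, whose tail reaches toward the decoding centre, was at 886, 879 and 831 FPKM in siFOXD3 and at 836, 771 and 811 FPKM in siNC. Its groups overlapped by the lowest siFOXD3 and the highest siNC value, and it did not pass (log2 fold change 0.10 ± 0.04, limma adjusted p = 0.0624), though it did after median-of-ratios scaling (0.19) and without siNC replicate 1 (0.13).

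RPS26, which contacts messenger RNA upstream of the start codon at the exit of the path, was the ribosomal protein gene with the largest rise. It was at 789.8, 833 and 771 FPKM in siFOXD3 and at 640.4, 529 and 533 FPKM in siNC. The lowest siFOXD3 library stood above the highest siNC library, the ratio of means was 1.41, and the log2 fold change was 0.50 ± 0.07 (limma adjusted p = 0.000124). TSR2, the escort that carries RPS26 into the preribosome, named here after its values were seen, averaged 20.7 ± 1.33 FPKM in siFOXD3 and 14.1 ± 0.718 FPKM in siNC (log2 fold change 0.52, limma adjusted p = 8.74e-05).

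RPL5 and RPL11, which together bind the smallest large-subunit ribosomal RNA and, when free, the ubiquitin ligase MDM2, moved in opposite directions. RPL5 was at 1206, 1252 and 1238 FPKM in siFOXD3 and at 1340.1, 1392 and 1401 FPKM in siNC, a log2 fold change of -0.16 ± 0.04 (limma adjusted p = 0.00277). RPL11 was at 1722, 1743 and 1766 FPKM in siFOXD3 and at 1561, 1475 and 1606 FPKM in siNC, a log2 fold change of 0.17 ± 0.04 (limma adjusted p = 0.00308). Neither gene's groups overlapped. RPL11 was at 0.26 under either other scaling, while RPL5 did not pass under them (-0.07 after median-of-ratios scaling and -0.08 after quantile normalization). RPF2 (log2 fold change 0.83) and RRS1 (0.82), which dock the particle into the preribosome, and MDM2 (0.41) rose. CDKN1A, a cyclin-dependent kinase inhibitor (-1.31, 13.5 FPKM in siFOXD3 and 35.1 FPKM in siNC), fell.

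The other rises were smaller than that of RPS26. RPL36AL, an intronless copy of RPL36A, was at 439.9, 459.7 and 452 FPKM in siFOXD3 and at 366, 349 and 391 FPKM in siNC, a log2 fold change of 0.29 ± 0.05 (limma adjusted p = 0.000415; 0.18 after quantile normalization). RPL22, a protein not essential for ribosome assembly in mice, was at 515, 519 and 519 FPKM in siFOXD3 and at 473, 427 and 460.2 FPKM in siNC, a log2 fold change of 0.19 ± 0.05 that did not pass after quantile normalization (0.09). RPL36A, RPS4X, encoded on the X chromosome, and RPL6 each rose by 0.12 on the log2 scale. For all of these genes the siFOXD3 libraries lay above the siNC libraries. RPL36A, RPS4X and RPL6 did not pass in limma without trend and robust, nor without siFOXD3 replicate 3 (limma adjusted p = 0.119, 0.0511 and 0.06). RPL36A also lost its call after quantile normalization (0.0841) and without siFOXD3 replicate 1 or siNC replicate 2, RPS4X without siFOXD3 replicate 1 and RPL6 without siFOXD3 replicate 2. RPS26, RPL36AL and RPL11 were called higher under every one of the 16 alternative settings tried, and 38 of the 64 genes that fell were called lower under every one.

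Of the 10 genes that did not pass, RPS29, RPL23A, RPS24 and RPS27A had log2 fold changes between -0.04 and 0.01, though after quantile normalization RPS29 (0.24) and RPS24 (0.21) passed as higher and RPL23A (-0.21) as lower, and RPS27A (0.0988) passed as higher after median-of-ratios scaling. RPS29, a zinc-binding small-subunit protein, was at 5438, 5344 and 5204 FPKM in siFOXD3 and at 5864, 5119.8 and 5444 FPKM in siNC, with overlapping groups. RPS27A, made as a fusion with ubiquitin, was at 1459.8, 1428 and 1509 FPKM in siFOXD3 and at 1431, 1467 and 1466 FPKM in siNC, also overlapping. FAU, which encodes a ribosomal protein fused to a ubiquitin-like protein and lies outside the symbol rule, did not pass either (log2 fold change -0.01 ± 0.06). RPL35 (0.10), RPS15 (0.10), RPL38 (-0.12), RPL39L (-0.12), RPS27L (0.22) and RPL21 made up the rest of the 10. Several of these passed under another setting: RPL35 after either other scaling and without siNC replicate 1 (0.16), RPL38 without siNC replicate 2 (-0.18), and RPL39L after quantile normalization (-0.20). RPS27L passed after median-of-ratios scaling (0.31), with the 5 FPKM filter, without siFOXD3 replicate 1 (0.31) and without siNC replicate 3 (0.28).

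Levels differed far more between genes than between groups. Leaving out 4 paralog-type symbols, RPL39L, RPL36AL and RPS27L among them, the means over 6 libraries of the other 77 genes ran from 90.6 to 9324 FPKM with a median of 1613 FPKM, against a median of 11.2 FPKM over all genes tested. Of these, 60 averaged at least 1000 FPKM, and RPL13, RPL15 and RPL27A averaged under 300 FPKM. Reads shared with pseudogenes may be split or lost, so a low value need not mean a scarce messenger RNA. Ribosomal protein genes filled 34 of the 50 and 60 of the 100 most abundant symbols. After RPL39 and RPS29 the most abundant were RPS18, given above, RPS12 and RPL41. RPS12, a small-subunit protein of the beak, was at 3967, 4117 and 3988 FPKM in siFOXD3 and at 5173, 5006 and 5232 FPKM in siNC, and its log2 fold change of -0.35 ± 0.03 was 0.04 after quantile normalization. RPL41, the shortest ribosomal protein, was at 4099, 4081 and 4264 FPKM in siFOXD3 and at 4491, 4386 and 4816 FPKM in siNC, a log2 fold change of -0.14 ± 0.04 that was 0.25 after quantile normalization. The direction of these 2 very abundant genes thus depended on the scaling, and RPL41 also lost its call without siFOXD3 replicate 1 or siFOXD3 replicate 2. Across 68 genes with an annotated coding length (75 to 1281 bases), the log2 fold change had Pearson r = -0.0938 and Spearman rho = -0.102 with coding length and r = -0.00989 and rho = -0.0333 with the log2 level, as a description over genes that share the same 6 libraries and are not independent replicates.

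**Figure D3:**
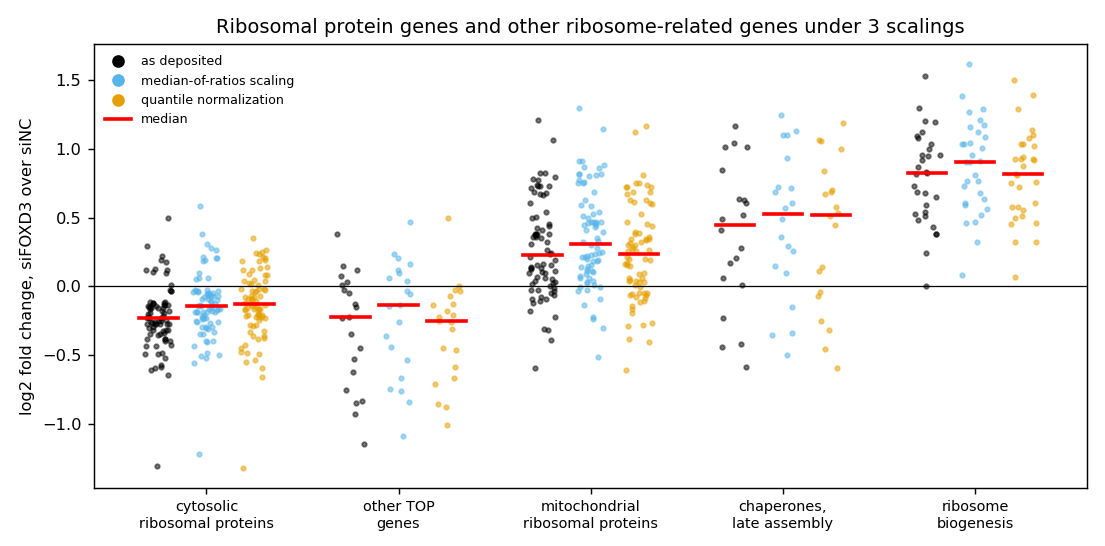
Log2 fold changes (siFOXD3 over siNC) of cytosolic ribosomal protein genes, other TOP genes, mitochondrial ribosomal protein genes, chaperones with late assembly factors, and biogenesis genes, as deposited and after 2 other scalings. Each point is a gene, and red lines are medians. The ribosomal protein median stays below 0 at -0.23, -0.14 and -0.13, and the biogenesis median stays above 0 under all of them.

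Replicates agreed closely for nearly every gene. The SD of log2 values over 3 libraries had a median of 0.0280 in siFOXD3 and 0.0551 in siNC, and apart from RPL21 it did not exceed 0.158 in siFOXD3 or 0.156 in siNC. RPL21, a large-subunit protein, was at 0.0164, 2276 and 1954 FPKM in siFOXD3 and at 52.2, 180.1 and 632 FPKM in siNC. The row of its pseudogene RPL21P28 was at 2309, 0.0297 and 350.3 FPKM in siFOXD3 and at 2705, 2427 and 2093 FPKM in siNC, high where RPL21 was low. Their sum was 2309, 2276 and 2304 FPKM in siFOXD3 and 2757, 2607 and 2726 FPKM in siNC, without overlap. RPL21 alone did not pass (log2 fold change -0.14 ± 3.76, limma adjusted p = 0.977), and its ratio of means, 4.89, had the opposite sign, so no direction can be given for it alone. The sum of both rows gave -0.23 ± 0.03 (limma adjusted p = 0.000184), a setting added after the values were seen.

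RPL13A also has a pseudogene row, RPL13AP5, whose values varied little within a group. It was at 3213, 3242 and 3305 FPKM in siFOXD3 and at 5010.3, 4852 and 5044 FPKM in siNC, well above RPL13A itself. RPL13AP20, another pseudogene row, did not exceed 9.71 FPKM in any library. RPL13A and both pseudogene rows together were at 3679, 3709 and 3786 FPKM in siFOXD3 and 6167, 5983 and 6247 FPKM in siNC. With it the log2 fold change was -0.72 ± 0.03 (limma adjusted p = 6.07e-08) in place of -1.31. RPL13A kept the largest fall of the set either way. With such rows added for every gene that had one, 65 of the 81 genes fell and 7 rose. Among the 81, 2 symbols had identical values in every library and stand for 1 measurement counted as 2.

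**Figure D4:**
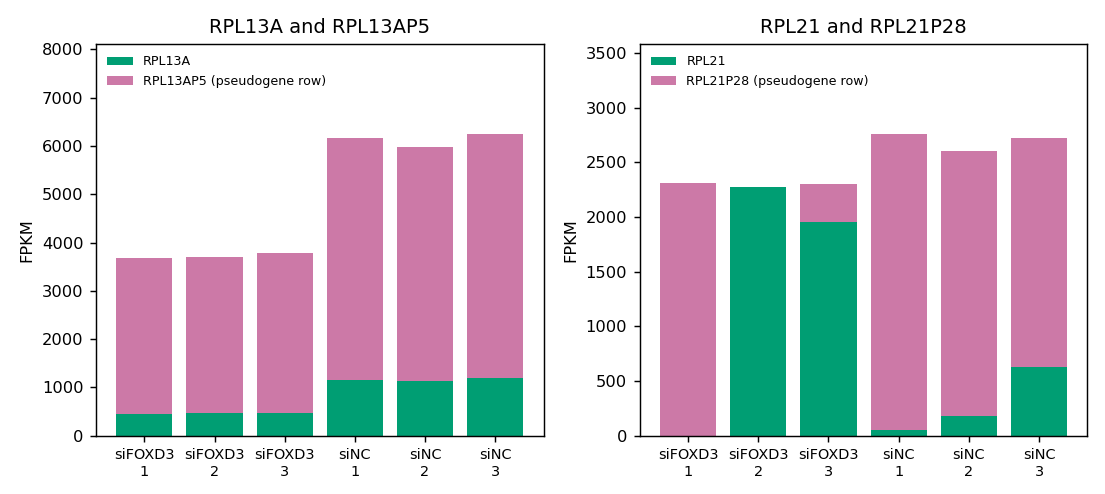
Stacked bars of FPKM in each siFOXD3 and siNC library, with RPL13A below its pseudogene row RPL13AP5 (left) and RPL21 below RPL21P28 (right). The sum of the RPL21 rows runs from 2276 to 2309 FPKM in siFOXD3 and from 2607 to 2757 FPKM in siNC, while its parts change places between libraries of 1 group.

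Paralogs of standard ribosomal protein genes were at low levels beside them except for RPL36AL, and whether their proteins enter ribosomes was not measured. RPL39L, a testis-enriched copy of RPL39, was at 66.3, 62.0 and 62.6 FPKM in siFOXD3 and at 76.8, 64.6 and 66.8 FPKM in siNC. RPS27L, a copy of RPS27, was at 32.3, 40.3 and 37.4 FPKM in siFOXD3 and at 27.8, 32.1 and 33.9 FPKM in siNC. Both overlapped between the groups and did not pass (limma adjusted p = 0.141 for RPL39L and 0.0513 for RPS27L). RPL22L1 and RPL7L1, paralogs outside the symbol rule, rose with log2 fold changes of 0.32 and 0.38, and RPL26L1 did not pass at 0.01. As a share of the standard gene, RPL36AL was at 45.6 ± 2.08% of RPL36A in siFOXD3 and 40.6 ± 0.831% in siNC. RPS27L was at 1.35 ± 0.173% of RPS27 in siFOXD3 and 0.932 ± 0.0839% in siNC. RPL26L1 was at 3.16 ± 0.358% of RPL26 in siFOXD3 and 2.24 ± 0.207% in siNC, and RPL7L1 at 7.64 ± 0.328% of RPL7 in siFOXD3 and 5.23 ± 0.321% in siNC. In these 4 pairs every siFOXD3 library was above every siNC library, and the 2-sided exact permutation p was 0.1, the smallest that 3 against 3 libraries can give (0.15 after Benjamini-Hochberg adjustment over 6 pairs). RPL22L1 was at 4.39 ± 0.139% of RPL22 in siFOXD3 and 3.99 ± 0.402% in siNC (exact permutation p = 0.3, adjusted 0.36). RPL39L was at 0.728 ± 0.0273% of RPL39 in siFOXD3 and 0.700 ± 0.0573% in siNC (exact permutation p = 0.5, adjusted 0.5).

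**Figure D5:**
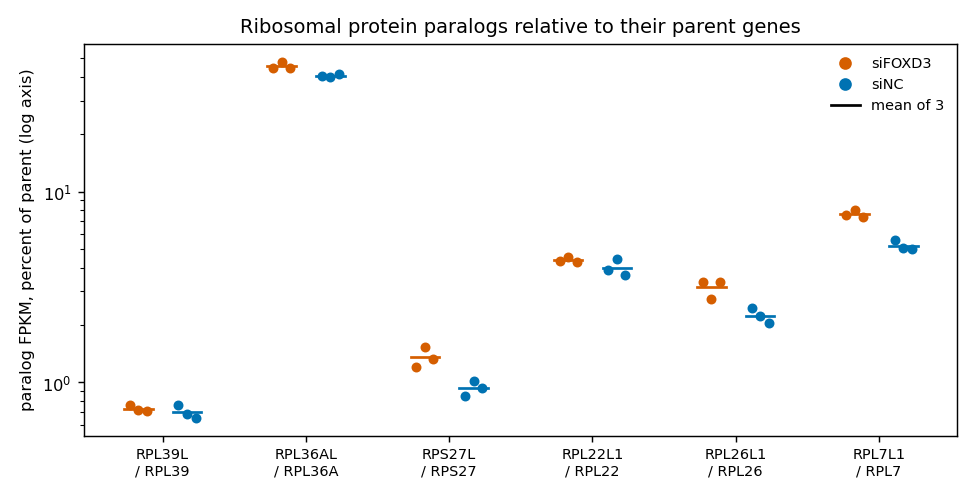
FPKM of 6 paralogs as a percent of their standard ribosomal protein gene in each siFOXD3 and siNC library, on a logarithmic axis, with lines at the means of 3. RPL36AL lies near 45.6% in siFOXD3 and 40.6% in siNC, and the other paralogs lie below 10% of their standard gene in all libraries.

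Other genes whose messenger RNAs are taken to carry the tract, outside the symbol rule, were described from a list of 22 symbols, 21 of them tested. RACK1 appears under its older symbol GNB2L1, and matches to the motif were not counted for this list. Of the 21 tested, 12 fell and 3 rose, shares of 57.1% and 14.3% beside 38.7% and 27.2% of all genes tested. Their median log2 fold change was -0.22. After median-of-ratios scaling 10 fell and 4 rose, beside 33.1% lower and 33% higher over all genes. After quantile normalization 16 fell and 1 rose, beside 30.5% and 33.9%. Leaving out siFOXD3 replicate 1 or siFOXD3 replicate 2 gave 1 gene that rose in place of 3. The 4 largest falls, VIM, EEF2, EEF1A1 and TPT1, exceeded those of all ribosomal protein genes but RPL13A. They also exceeded that of RPL13A with its pseudogene rows added (-0.72). EEF2, which moves the ribosome along messenger RNA, averaged 524 ± 5.74 FPKM in siFOXD3 and 1000.3 ± 34.3 FPKM in siNC, a log2 fold change of -0.93. EEF1A1, which delivers aminoacyl transfer RNA, averaged 2996 ± 60.3 FPKM in siFOXD3 and 5406 ± 419 FPKM in siNC, a log2 fold change of -0.85. TPT1, a growth-related calcium-binding protein, averaged 1667 ± 13.7 FPKM in siFOXD3 and 2974 ± 55.3 FPKM in siNC, a log2 fold change of -0.84. VIM, encoding the filament protein vimentin, fell by 1.15 on the log2 scale at a low level (1.17 FPKM in siFOXD3 and 3.79 FPKM in siNC). The 3 that rose were NPM1 (0.38), NACA (0.15) and EEF1B2 (0.12), named after their values were seen. NPM1 is also counted among the ribosome biogenesis genes.

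Of 16 regulators of such messenger RNAs, 6 rose (37.5%, beside 27.2% of all genes tested) and 2 fell (12.5%, beside 38.7%), and the median log2 fold change was 0.07. The rises numbered 8 after median-of-ratios scaling (50%, beside 33% of all genes tested). They numbered 4 after quantile normalization (25%, beside 33.9%), which was below the share of all genes. MTOR, the kinase that controls their translation, averaged 19.0 ± 0.412 FPKM in siFOXD3 and 11.9 ± 1.17 FPKM in siNC, a log2 fold change of 0.64 (limma adjusted p = 3.35e-05). RPS6KB1, a kinase downstream of mTOR that phosphorylates RPS6, rose by 0.40, and LARP1, named after its values were seen, rose by 0.33. EIF4EBP1, a translation repressor that mTOR inactivates, averaged 52.6 ± 6.98 FPKM in siFOXD3 and 100.007 ± 8.52 FPKM in siNC, a log2 fold change of -0.92 (limma adjusted p = 1.12e-05). TSC2, which restrains mTOR, was also named after its values were seen and fell by 0.33. Elsewhere in the list EIF4EBP2 rose by 0.16, and RPTOR (-0.19), MLST8 (-0.13) and RHEB (0.11) did not pass. These are messenger RNA levels, and the activity of the kinases was not measured.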

How the data were processed

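RNA from 6 libraries of A549 cells (3 siFOXD3, 3 siNC, grouped by sample title) was analysed from per-gene tables. Deposited values were in FPKM, as named per the file headers, with 1 value per row; 333 symbols had several rows in a file. TopHat, Cufflinks and the build hg19 were used per the submitters' processing notes. Tool versions, annotation and strand setting: not given in the sources used here. Reads shared with pseudogenes or near-identical copies may be split or lost, so values of such genes are uncertain.

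Rows of 1 symbol were summed and an absent symbol was set to 0. Genes reaching 1 FPKM in 3 or more of 6 libraries were tested by limma 3.58.1 (R 4.3.3) after a log2(FPKM + 1) transform, with eBayes (trend and robust), the group as sole term, two-sided p-values, Benjamini-Hochberg adjustment over all genes tested, and calls at an adjusted p under 0.05. Fold changes on this scale understate the change of low genes. The procedure was tested on simulated data. Read counts are not in the files; the spacing of low values gave an estimate of depth, with an assumed fragment length of 150 bases. Python 3.11.15, pandas 2.3.3, numpy 2.4.6, scipy 1.17.1 and matplotlib 3.10.9 served the other steps; coding lengths came from GENCODE 29 and promoters from RefSeq.

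The members and lists were chosen with earlier results of these data known. Genes named in full, by rule, were the 5 most abundant members, the 6 largest rises and falls, the members of the role groups and paralogs, and up to 4 called members of each further list with the largest change; exceptions are marked, and some genes the rule selects are not reported here. Alternatives covered pseudocounts of 0.1 and 5, the filter, median-of-ratios scaling, quantile normalization, limma without trend and robust, the highest row of each symbol, the replicate block, added pseudogene rows, and leaving out each library.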

Additional observations from a re-analysis of the deposited data

How the results depend on the processing

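Ribosomal protein genes called lower numbered 64 as reported and 45 to 65 under the alternatives. The number called higher, 7 as reported, was 11 after median-of-ratios scaling, 14 after quantile normalization, 4 in limma without trend and robust, and 4 to 9 when each library was left out in turn. The median log2 fold change was -0.14 after median-of-ratios scaling (-0.17 small subunit, -0.14 large subunit) and -0.13 after quantile normalization (-0.10 small, -0.16 large). After quantile normalization the sign turned for RPL24 (0.0443), RPL30 (0.0845), RPL41 (0.25), RPL8 (0.0066), RPLP1 (0.016), RPS10 (0.12), RPS12 (0.0393), RPS13 (0.14), RPS21 (0.13), RPS24 (0.21), RPS29 (0.24) and RPSA (0.12). Of TOP messenger RNA genes outside the symbol rule, 3 were called higher as reported. The number was 1 after quantile normalization and in limma without trend and robust, and 1 to 3 when each library was left out. Quantile normalization gave 8 mitochondrial ribosomal protein genes called lower, against 5. The causes were not tested. Same-numbered libraries deviated together at r = 0.0613, 0.163 and 0.115, and differently numbered ones at r = -0.119 to 0.0259. The labels do not say that the numbers pair the libraries, so the main fit did not take them as pairs. Whether same-numbered libraries shared a batch was not tested. With the replicate block 8 ribosomal protein genes rose and 65 fell, and 8172 genes were called in place of 8278. Depth is only estimated, so no counting intervals are given.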

Other observations

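Genes that build ribosomes moved differently from the genes of their protein components. Of 31 ribosome biogenesis genes, 30 rose (96.8%, beside 27.2% of all genes tested), with a median log2 fold change of 0.82 beside -0.23 for the 81 ribosomal protein genes and -0.08 for all genes tested (limma, Benjamini-Hochberg). NOP16, a nucleolar large-subunit assembly protein, averaged 63.0 ± 1.01 FPKM in siFOXD3 and 21.2 ± 1.10 FPKM in siNC (SD, n = 3 each), a log2 fold change of 1.53. NOP2, a ribosomal RNA methyltransferase (46.8 FPKM in siFOXD3 and 18.5 FPKM in siNC), DKC1, the pseudouridine synthase dyskerin (1.20), and UTP20, a component of the small-subunit processome (1.19), rose as well. Among 20 tested chaperones of ribosomal proteins and late assembly factors, 14 rose (70%, beside 27.2% of all genes tested) and 4 fell (20%, beside 38.7%), and the median was 0.45. PNO1, a small-subunit maturation factor, averaged 33.9 ± 0.858 FPKM in siFOXD3 and 14.6 ± 0.906 FPKM in siNC (1.16). BCCIP (1.04), the small-subunit assembly factor LTV1 (1.01) and GRWD1 (1.01), a chaperone of RPL3, also rose. NOB1, the nuclease that makes the final cut of small-subunit ribosomal RNA and a partner of PNO1, averaged 25.6 ± 0.411 FPKM in siFOXD3 and 39.0 ± 2.22 FPKM in siNC (-0.59). The other 3 that fell were NMD3, an export adaptor of the large subunit (-0.44), EFTUD1, a GTPase that releases EIF6 from it (-0.42), and PDCD2, a chaperone of RPS2 (-0.23). These 4 were named after their values were seen.

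The mitochondrial ribosome, made of other proteins encoded in the nucleus, did not follow the cytosolic one. Of its 76 tested genes, 42 rose (55.3%, beside 27.2% of all genes tested) and 5 fell (6.58%, beside 38.7%). The median log2 fold change was 0.23. After median-of-ratios scaling 50 rose (65.8%, beside 33% of all genes), and after quantile normalization 41 rose (53.9%, beside 33.9%). MRPL20 averaged 173 FPKM in siFOXD3 and 74.7 FPKM in siNC (1.21), and MRPL1 averaged 16.5 ± 0.636 FPKM in siFOXD3 and 7.41 ± 1.22 FPKM in siNC (1.06). MRPL10 averaged 28.8 ± 1.13 FPKM in siFOXD3 and 44.1 ± 1.96 FPKM in siNC (-0.60). The difference between these lists and the cytosolic ribosomal protein genes was not tested, and the lists were chosen with earlier results of these data known.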
